A study of Mus musculus with 6 samples.

Results

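The genes described are 59 genes that license DNA for replication and build the replisome, the set of proteins that copies DNA at the fork. They were chosen by name, from general knowledge of the origin recognition complex, the replicative helicase, the polymerases, the clamp loaders, fork protection and chromatin assembly, and the rule that takes them uses no measured difference between the groups. The choice was still made with earlier results of these data known, so it was not blind to them. All 59 were among the 19937 genes measured. By role, 15 belong to licensing, 8 to origin firing, 22 to elongation, 4 to fork protection and 8 to chromatin assembly and maintenance, and the other 2 are Dtl and Mcm8.

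DNA replication runs in stages. Before S phase the origin recognition complex, with Cdc6 and Cdt1, loads the ring-shaped Mcm helicase onto DNA, and geminin blocks further loading once S phase has begun. In S phase the Cdc7-Dbf4 kinase, Cdc45 and the GINS complex turn the loaded helicase on, the polymerases alpha, delta and epsilon copy the strands on the sliding clamp Pcna, and histones are put back behind the fork. Many of these genes are transcribed as cells pass from G1 into S phase, in large part through E2F transcription factors, and cycling blood progenitors express them more strongly than resting stem cells.

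The arrays measured lineage-depleted (Lin-) hematopoietic progenitors from C57BL6 mice carrying Rosa26rtTA, whose product switches on Tet promoters in the presence of doxycycline. The 3 EVI1 arrays hold cells given a lentiviral vector with EVI1, a zinc finger transcription factor of the Mecom locus, linked by an IRES to EGFP, and the 3 EGFP arrays hold cells given the same kind of vector with EGFP alone. Both groups were grown in murine stem cell factor (50 ng/ml), murine interleukin 3 (20 ng/ml), human Flt3 ligand (50 ng/ml) and human interleukin 11 (50 ng/ml). Both received vector 24 h after isolation and doxycycline (1 µg/ml) 24 h after the vector. EGFP-positive cells were sorted and RNA was taken 20 h or 24 h after doxycycline, as the 2 descriptions differ. The labels give no age of the mice and do not say how many animals, cultures or transductions stand behind the arrays. The p-values thus set the difference between groups against the spread between these arrays, which may not be the spread between animals.

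The transgene's own gene, Mecom, gave no higher signal in EVI1-labelled cells. The probe set used read 6.29, 6.18 and 6.49 in the EVI1 arrays, against 6.39, 7.53 and 6.86 in the EGFP arrays (adjusted p = 0.166), and whether its probes read the vector's sequence is not known here, so directions are those of the labels. Array medians lay between 7.24 and 7.31 log2 units. As a stand-in for background, the level that 95% of the 1015 olfactory receptor genes stay below was 6.99 in EVI1 arrays and 6.955 in EGFP arrays. The Mecom set used had means below this level in both groups, 6.32 in EVI1 arrays and 6.92 in EGFP arrays. All 8 progenitor markers exceeded the level in both groups, against 1 of 3 B cell markers. Of the other lists, 5 of 6 neutrophil markers and the 1 mature erythroid marker measured, Ermap, also exceeded it in both groups. The macrophage list had 4 of 5 above it in EVI1 arrays and 3 in EGFP arrays, and the T cell list 2 and 3 of 4. None of the 3 B cell markers passed the test, nor did Ermap. Among the progenitor markers 5 fell and 2 rose, and 4 of 5 mast cell and basophil markers fell. The mean level of the mast cell and basophil list was 9.64 to 9.97 in the EVI1 arrays, against 11.1 to 11.4 in the EGFP arrays, and all 5 (Gata2 is in the progenitor list too) exceeded that level in both groups. Of 6 neutrophil markers 2 fell and 1 rose (3 fell with the replicate number as a block, Ltf being added), with list means of 7.94 to 9.03 in the EVI1 arrays, against 9.08 to 10.2 in the EGFP arrays. Macrophage markers gave 1 rise and 1 fall among 5 (2 falls with the block, Adgre1 being added), with list means of 8.04 to 8.57 in the EVI1 arrays, against 8.26 to 8.66 in the EGFP arrays. Among 4 T cell markers 1 fell, and the list mean was 6.62 to 6.76 in the EVI1 arrays, against 6.85 to 7.19 in the EGFP arrays. The part of these marker shifts in the replication genes was not tested. In RNA from a mixed culture, fewer dividing cells and less of a transcript per dividing cell cannot be told apart.

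Replication genes were lower in the EVI1 arrays across nearly the whole machinery. Of the 59 genes 51 fell at an adjusted p under 0.05, none rose (limma) and 8 did not pass. At an unadjusted p under 0.05, 55 were lower, against 14.4% of all genes. Across all genes measured, 9.18% fell and 9.06% rose by the same test. The median log2 fold change was -1.22, a 2.32-fold lower level, against a median of 0.0060 over all genes. The fall was at least 2-fold for 37 of the 59, against 3.03% of all genes. In 54 of the 59 every EVI1 array lay below every EGFP array, an arrangement found for 16.5% of all genes. All 59 had a log2 fold change below 0, against 49.0% of all genes, and the least was that of Orc4 at -0.03. Of the 59, 56 were lower in each of the 3 pairs of same-numbered arrays, against 4994 of the 19937 genes. With the replicate number as a block, 53 fell, against 11.0% of all genes; Rpa3 and Chaf1b were added.

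**Figure D1:**
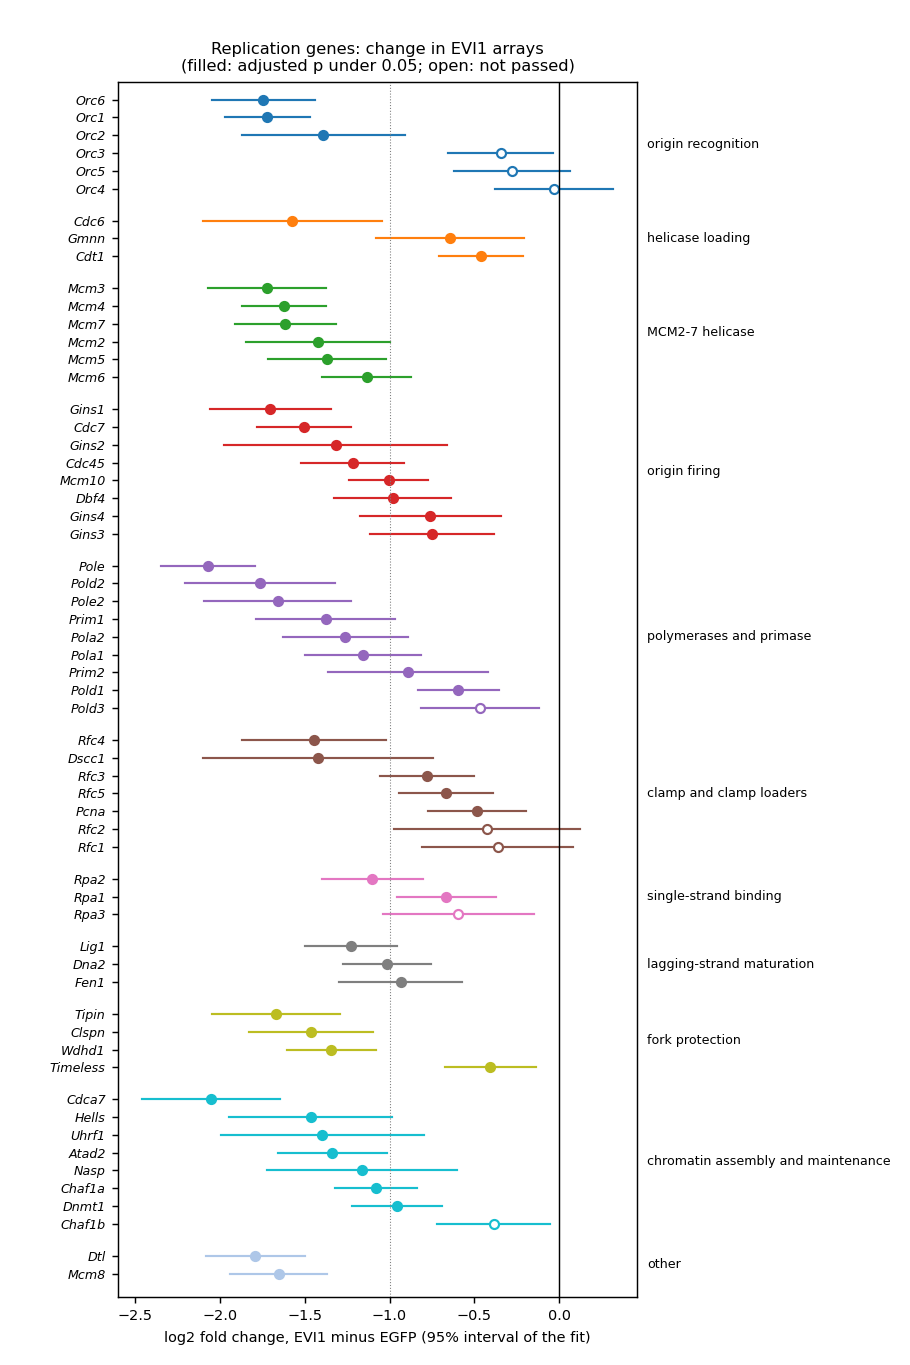
Log2 fold change of the 59 replication genes, EVI1 minus EGFP (x axis), with the 95% interval of the limma fit; genes are grouped by role and filled where the adjusted p was under 0.05. The genes run from -2.07 for Pole to -0.03 for Orc4, and the 8 open points include 3 of the 6 subunits of the origin recognition complex.

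The promoters are shown because these genes moved together and E2F sites are the element best known from their control. RefSeq promoters (GRCm38.p6) were found for 48 of the 59 genes, and the 250 bases before each start were searched on both strands for the E2F spellings TTTGGCGC, TTTCCCGC, TTTGCCGC and TTTCGCGC. These letters were present for 14 of the 48 genes (29.2%), against 449 of 15613 measured genes with a promoter (2.88%, replication genes included). By window the share was 14 of 60 (23.3%), against 611 of 32851 windows (1.86%). Capitals mark the matches in the stretches below, which run 5′ to 3′ on the strand of the gene and stop before its start. Not all 14 genes are shown. Those left out are Gins3 (log2 fold change -0.75), Rfc3 (-0.78), Dnmt1 (-0.96) and Uhrf1 (-1.40).
Orc1 (chr4:108579397-108579453, plus strand): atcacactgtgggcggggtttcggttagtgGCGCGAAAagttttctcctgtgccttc
Cdc6 (chr11:98907983-98908050, plus strand): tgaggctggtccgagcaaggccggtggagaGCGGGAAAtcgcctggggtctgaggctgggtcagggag
Mcm5 (chr8:75109326-75109397, plus strand): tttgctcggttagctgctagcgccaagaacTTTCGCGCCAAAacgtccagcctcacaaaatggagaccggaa
Mcm6 (chr1:128359715-128359845, minus strand): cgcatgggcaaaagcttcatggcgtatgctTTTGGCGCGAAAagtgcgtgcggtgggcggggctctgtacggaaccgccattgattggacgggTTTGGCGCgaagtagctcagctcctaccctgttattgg
Mcm7 (chr5:138172011-138172078, minus strand): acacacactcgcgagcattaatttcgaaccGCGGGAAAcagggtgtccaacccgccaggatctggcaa
Pola1 (chrX:93632256-93632323, minus strand): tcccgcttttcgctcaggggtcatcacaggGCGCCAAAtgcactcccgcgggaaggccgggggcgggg
Hells (chr19:38930898-38930965, plus strand): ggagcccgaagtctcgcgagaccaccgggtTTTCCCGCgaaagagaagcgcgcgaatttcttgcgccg
Cdca7 (chr2:72476118-72476185, plus strand): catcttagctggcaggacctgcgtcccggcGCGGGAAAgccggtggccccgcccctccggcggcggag
Dtl (chr1:191575545-191575582, minus strand): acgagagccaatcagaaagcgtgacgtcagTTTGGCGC
Orc3 (chr4:34614946-34615013, minus strand): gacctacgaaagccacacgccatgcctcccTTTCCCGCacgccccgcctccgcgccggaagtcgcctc
In Mcm5 and Mcm6 a pair of matches on opposite strands overlap, and Mcm6 holds a further match nearer the start. In Dtl the match ends at the base before the start. Of the 14 genes with a match 13 fell, with Orc3 the exception, and their median log2 fold change was -1.38. Of the 34 without a match 28 fell, with a median of -1.09. Over all measured genes with a promoter the medians were -0.040 with a match and 0.0071 without, both close to 0. No E2F match overlapped a CCAAT box. CCAAT was found on either strand for 28 of the 48 genes (58.3%), against 38.8% of measured genes. GAAGATGAG, a spelling bound by the C-terminal zinc fingers of EVI1, was found for 0 of 48, against 0.436% of measured genes. The spelling is so rare that 0 of 48 is close to that share, and binding of EVI1 to these promoters was not tested. No spelling for other parts of the EVI1 protein was searched for.

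The origin recognition complex, 6 subunits that mark where helicases are loaded, split into 3 subunits that fell and 3 that did not pass. Orc1, the subunit whose protein level cycles with S phase in many cells, read 6.83, 6.97 and 6.76 in the EVI1 arrays, against 8.50, 8.66 and 8.56 in the EGFP arrays. It fell by 1.72 ± 0.11 on the log2 scale, 3.29-fold (± is the SE of the fit, adjusted p = 7.18e-05). The EVI1 mean of 6.85 was below the olfactory receptor level of 6.99. The groups were far apart, and the arrays within each lay close together. Orc6, the smallest subunit, read 9.49, 9.47 and 9.44 in the EVI1 arrays, against 11.30, 10.95 and 11.38 in the EGFP arrays. Its EVI1 values were close together, and it fell by 1.74 ± 0.13 (adjusted p = 0.000161). Orc2 read 8.35, 8.53 and 8.06 in the EVI1 arrays, against 9.76, 9.28 and 10.07 in the EGFP arrays, a change of -1.39 ± 0.21 (adjusted p = 0.00282) in which EGFP replicate 2 was the lowest of the EGFP arrays.

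The other subunits showed much smaller differences. Orc3, which binds Orc2, read 11.26, 11.46 and 11.11 in the EVI1 arrays, against 11.75, 11.43 and 11.68 in the EGFP arrays, so that the groups overlapped (-0.35 ± 0.13, adjusted p = 0.130). Orc4 read 8.82, 8.59 and 8.36 in the EVI1 arrays, against 8.82, 8.57 and 8.47 in the EGFP arrays, which is an overlap of the whole range (-0.03 ± 0.15, adjusted p = 0.944). Its 95% interval of -0.38 to 0.32 left room for a small change in either direction, and its sign turned with a further quantile normalisation (0.0011). Orc5 read 8.80, 8.77 and 8.55 in the EVI1 arrays, against 9.18, 9.07 and 8.70 in the EGFP arrays (-0.28 ± 0.15, adjusted p = 0.286). The intervals of Orc1 (-1.97 to -1.47) and Orc6 (-2.05 to -1.44) do not reach those of Orc3 (-0.66 to -0.04), Orc4 or Orc5 (-0.62 to 0.06), although the differences between subunits were not tested.

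The 3 loading factors all fell, by amounts that were not tested against each other. Cdc6, the ATPase that joins the origin complex to admit the helicase, read 7.52, 8.23 and 7.74 in the EVI1 arrays, against 9.01, 9.75 and 9.44 in the EGFP arrays. It fell by 1.57 ± 0.23 (adjusted p = 0.00249), and replicate 2 was the highest array in both groups. Cdt1, which escorts the helicase to origins and is held in check mainly by destruction of its protein, read 7.46, 7.47 and 7.44 in the EVI1 arrays, against 7.77, 8.03 and 7.95 in the EGFP arrays. The change was -0.46 ± 0.11 (adjusted p = 0.0200, and 0.0613 to 0.0703 without EVI1 replicate 1, 2 or 3 or EGFP replicate 3). Gmnn encodes geminin, the inhibitor of Cdt1, and read 8.30, 8.64 and 7.97 in the EVI1 arrays, against 8.90, 9.20 and 8.75 in the EGFP arrays. Its change of -0.64 ± 0.19 was at the edge of the threshold (adjusted p = 0.0490, 0.00581 with a replicate block); the call was lost under 8 alternatives, with adjusted p of 0.0506 to 0.159.

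All 6 subunits of the Mcm2 to Mcm7 helicase fell, with log2 fold changes of -1.72 to -1.13, each at least 2-fold, with a median of -1.52. Mcm2 read 7.95, 8.40 and 8.37 in the EVI1 arrays, against 9.31, 9.81 and 9.87 in the EGFP arrays, and fell by 1.42 ± 0.19 (adjusted p = 0.00148). Mcm3 read 8.61, 8.92 and 8.57 in the EVI1 arrays, against 10.17, 10.60 and 10.51 in the EGFP arrays, and fell by 1.72 ± 0.15 (adjusted p = 0.000290). The groups of both were well apart. Mcm4 read 8.86, 9.07 and 8.94 in the EVI1 arrays, against 10.49, 10.59 and 10.66 in the EGFP arrays. It fell by 1.62 ± 0.11 (adjusted p = 9.70e-05). Mcm5 read 8.45, 8.67 and 8.23 in the EVI1 arrays, against 9.62, 10.003 and 9.84 in the EGFP arrays, with a change of -1.37 ± 0.15 (adjusted p = 0.000698). Mcm6 read 10.20, 10.09 and 9.98 in the EVI1 arrays, against 11.30, 11.08 and 11.29 in the EGFP arrays, the smallest change of the ring at -1.13 ± 0.11 (adjusted p = 0.000486). Mcm7 read 8.01, 8.38 and 8.17 in the EVI1 arrays, against 9.69, 9.93 and 9.78 in the EGFP arrays, and fell by 1.61 ± 0.13 (adjusted p = 0.000204). The ring is built from equal numbers of the 6 proteins, and the groups did not overlap for any of their transcripts. Of all genes, 16.5% had every EVI1 array below every EGFP array, and 3.03% fell at least 2-fold. The interval of Mcm6 (-1.40 to -0.87) overlaps that of Mcm3 (-2.07 to -1.38) only narrowly.

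**Figure D2:**
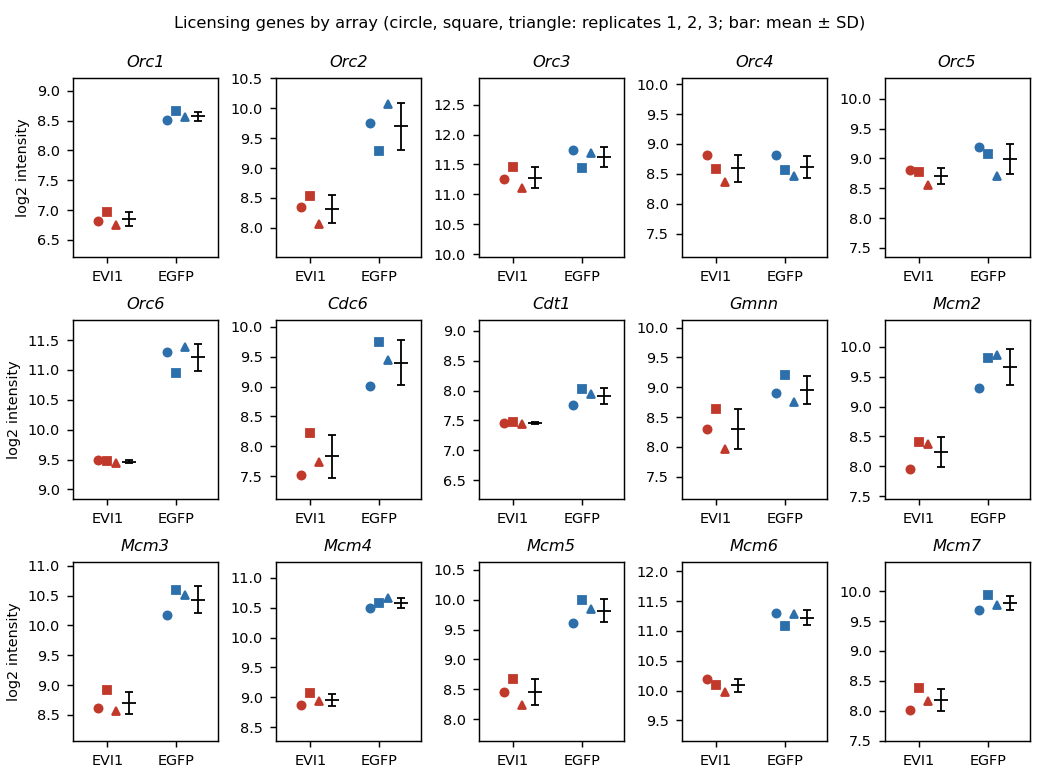
Log2 intensity of the 15 licensing genes on each array (y axis), EVI1 arrays in red and EGFP arrays in blue, with the mean and SD of each group. Orc1, Orc6 and the Mcm subunits differ by -1.74 to -1.13 log2 units, whereas Orc3, Orc4 and Orc5 overlap.

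The firing factors, which turn a loaded helicase into a moving one, all fell. This was 8 of 8, against 9.18% of all genes, with a median of -1.11. Cdc45, the helicase activator that rides with the fork, read 8.54, 8.68 and 8.26 in the EVI1 arrays, against 9.63, 9.81 and 9.70 in the EGFP arrays, and fell by 1.22 ± 0.13 (adjusted p = 0.000657). Gins1, a subunit of the GINS complex, read 7.68, 7.80 and 7.41 in the EVI1 arrays, against 9.33, 9.57 and 9.11 in the EGFP arrays. Its change of -1.70 ± 0.16 was the largest of the firing genes (adjusted p = 0.000333), while that of Gins3, its partner in the same complex, was the smallest. Gins3 read 8.20, 8.37 and 7.80 in the EVI1 arrays, against 8.97, 8.92 and 8.72 in the EGFP arrays, a change of -0.75 ± 0.16 (adjusted p = 0.0132). The other GINS subunits were Gins2 at -1.32 ± 0.29 and Gins4 at -0.76 ± 0.18. The call of Gins2 was lost without EVI1 replicate 1 (adjusted p = 0.0512) or 3 (0.0707), and that of Gins4 without EGFP replicate 1 (0.0521) or 3 (0.0542). The kinase Cdc7 fell by 1.50 ± 0.12, with an EVI1 mean of 6.88 that was also below the olfactory receptor level, and its activating subunit Dbf4 fell by 0.98 ± 0.15. Mcm10, which helps the helicase to start moving, fell by 1.01 ± 0.10.

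Among the 9 genes of the polymerases and primase 8 fell, with a median of -1.26, and the catalytic subunit of polymerase epsilon led them. Pole, which copies the leading strand, read 7.11, 7.36 and 7.13 in the EVI1 arrays, against 9.17, 9.23 and 9.41 in the EGFP arrays, the largest change of all 59 genes at -2.07 ± 0.12, 4.2-fold (adjusted p = 4.96e-05). Its log2 fold change ranked 49 from the lowest among the 19937 genes. The EVI1 mean of Pole, 7.20, was not far above the olfactory receptor level of 6.99, which leaves the size of its fall uncertain. Pole2, its regulatory partner, fell by 1.66 ± 0.19. The polymerase delta subunits, which act on the lagging strand, had unlike changes. Pold2, a small accessory subunit, was at -1.76 ± 0.19, and Pold1, the catalytic one, at -0.59 ± 0.10. The intervals of these 2 genes, -2.20 to -1.32 and -0.83 to -0.36, do not overlap, although the difference between them was not tested. Pold3 read 9.67, 9.77 and 9.28 in the EVI1 arrays, against 10.08, 9.88 and 10.16 in the EGFP arrays; the groups did not overlap, yet the gene did not pass (-0.47 ± 0.15, adjusted p = 0.0695), except without EGFP replicate 2 (0.0438) or with array weights (0.0375). The priming complex was lower throughout, with Pola1 at -1.16 ± 0.15, Pola2 at -1.26 ± 0.16, Prim1 at -1.38 ± 0.18 and Prim2 at -0.89 ± 0.20. Prim2 lost its call without EVI1 replicate 1 (0.0523) or 3 (0.0707).

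Of the 7 genes of the sliding clamp and its loaders 5 fell, with a median of -0.67. Pcna, the clamp that holds polymerases on DNA, read 13.26, 13.09 and 13.38 in the EVI1 arrays, against 13.82, 13.56 and 13.80 in the EGFP arrays. It fell by 0.48 ± 0.13 (adjusted p = 0.0300), a 1.4-fold difference, and the call was lost without any 1 of EGFP replicates 1 and 3 or EVI1 replicates 1 and 2 (adjusted p of 0.0828 to 0.108). Another probe set named Pcna, of lower mean, read 12.32, 12.23 and 12.10 in the EVI1 arrays, against 12.90, 12.62 and 12.97 in the EGFP arrays, a difference of -0.61. Whether either set also reads a near-identical copy of the gene is not known here.

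Rfc4 read 8.53, 8.94 and 8.26 in the EVI1 arrays, against 10.15, 9.80 and 10.12 in the EGFP arrays, and its change of -1.45 ± 0.18 (adjusted p = 0.00136) was the largest of the clamp loader, whose subunits form 1 ring. Rfc1, the large subunit, read 9.32, 9.53 and 9.18 in the EVI1 arrays, against 9.86, 9.28 and 9.99 in the EGFP arrays. EGFP replicate 2 was the lowest EGFP array and overlapped the EVI1 arrays (-0.36 ± 0.19, adjusted p = 0.282), and without that array Rfc1 passed at -0.58 (adjusted p = 0.0190). Rfc2 had a high EGFP replicate 2 instead. It read 9.85, 9.85 and 9.51 in the EVI1 arrays, against 10.04, 10.72 and 9.73 in the EGFP arrays, and did not pass (-0.42 ± 0.24, adjusted p = 0.311), with -0.14 when that array was left out. Rfc3 was at -0.78 ± 0.12 and Rfc5 at -0.67 ± 0.12, both lower by the test. Dscc1, part of an alternative loader that serves sister chromatid cohesion, fell by 1.42 ± 0.30, with calls lost without EGFP replicate 3 (0.0510) or EVI1 replicate 3 (0.0504).

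Of the genes that guard single strands 2 of 3 fell, and all 3 that finish the lagging strand fell. Rpa2, of the RPA complex that coats single-stranded DNA, read 8.02, 8.09 and 7.85 in the EVI1 arrays, against 9.04, 9.29 and 8.93 in the EGFP arrays, a change of -1.10 ± 0.13 (adjusted p = 0.000899). Rpa3 read 8.72, 8.998 and 8.32 in the EVI1 arrays, against 9.22, 9.55 and 9.06 in the EGFP arrays. The groups lay narrowly apart, and the gene did not pass (-0.60 ± 0.19, adjusted p = 0.0720) except with a replicate block (0.00804) or without EVI1 replicate 2 (0.0439). Its other probe set differed by -0.33. Rpa1 fell by 0.66 ± 0.13. Lig1, the ligase that seals Okazaki fragments, read 8.65, 8.61 and 8.37 in the EVI1 arrays, against 9.67, 9.77 and 9.87 in the EGFP arrays, and fell by 1.23 ± 0.12 (adjusted p = 0.000399). Fen1, the flap nuclease that trims them, read 7.27, 7.02 and 7.28 in the EVI1 arrays, against 8.14, 7.83 and 8.39 in the EGFP arrays, a change of -0.93 ± 0.16 (adjusted p = 0.00475). Dna2, a nuclease-helicase for long flaps, fell by 1.02 ± 0.11.

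The fork protection genes all fell, though the intervals of a pair of partners did not overlap. Tipin read 9.34, 9.66 and 9.25 in the EVI1 arrays, against 11.09, 10.83 and 11.33 in the EGFP arrays, and fell by 1.67 ± 0.16, 3.18-fold (adjusted p = 0.000417). Timeless, the protein Tipin binds at the fork, read 7.44, 7.20 and 7.37 in the EVI1 arrays, against 7.67, 7.68 and 7.88 in the EGFP arrays. Its change was -0.41 ± 0.12 (adjusted p = 0.0447), and the call was lost on leaving out any array but EGFP replicate 2 (0.0717 to 0.154). The intervals of Tipin (-2.04 to -1.29) and Timeless (-0.67 to -0.14) lie far apart, although the difference between them was not tested. Timeless read not far above the olfactory receptor levels of 6.99 in EVI1 arrays and 6.955 in EGFP arrays, which leaves the size of its fall uncertain. Clspn, which relays the replication checkpoint signal, was at -1.46 ± 0.16, and Wdhd1, which links the helicase to polymerase alpha, at -1.34 ± 0.11.

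Of the 8 chromatin genes 7 fell, with a median of -1.25. Cdca7, which recruits the remodeller Hells to chromatin, read 8.36, 8.33 and 7.73 in the EVI1 arrays, against 10.07, 10.28 and 10.23 in the EGFP arrays, the next largest change of the 59 after Pole, at -2.05 ± 0.18 (adjusted p = 0.000271). Hells itself fell by 1.46 ± 0.21. The genes that copy DNA methylation onto the new strand were lower as well, with Uhrf1, which reads hemimethylated DNA, at -1.40 ± 0.26 and the methyltransferase Dnmt1 at -0.96 ± 0.12. In chromatin assembly factor 1, which places new histones behind the fork, Chaf1a fell by 1.08 ± 0.11. Its partner Chaf1b read 8.75, 9.04 and 8.74 in the EVI1 arrays, against 9.09, 9.48 and 9.13 in the EGFP arrays, groups that lay narrowly apart, and did not pass (-0.39 ± 0.14, adjusted p = 0.115), except with a replicate block (0.0306). The intervals of Chaf1a (-1.32 to -0.84) and Chaf1b (-0.72 to -0.05) do not overlap, although the difference between them was not tested. The histone chaperone Nasp was at -1.16 ± 0.24 and lost its call without EVI1 replicate 3 (0.0639), and Atad2, a bromodomain ATPase on newly made chromatin, was at -1.34 ± 0.14.

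Dtl and Mcm8 stand outside these stages. Dtl, the receptor of the ubiquitin ligase that destroys Cdt1 on Pcna-bound DNA, read 7.76, 7.71 and 7.53 in the EVI1 arrays, against 9.27, 9.62 and 9.48 in the EGFP arrays, a change of -1.79 ± 0.13 (adjusted p = 0.000129). Mcm8, an Mcm relative that works in recombination rather than in the main helicase, read 6.97, 7.31 and 7.18 in the EVI1 arrays, against 8.91, 8.71 and 8.80 in the EGFP arrays, and fell by 1.65 ± 0.12 (adjusted p = 0.000160). In both genes the groups were well apart. The EVI1 mean of Mcm8, 7.15, was not far above the olfactory receptor level of 6.99, which leaves the size of its fall uncertain.

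**Figure D3:**
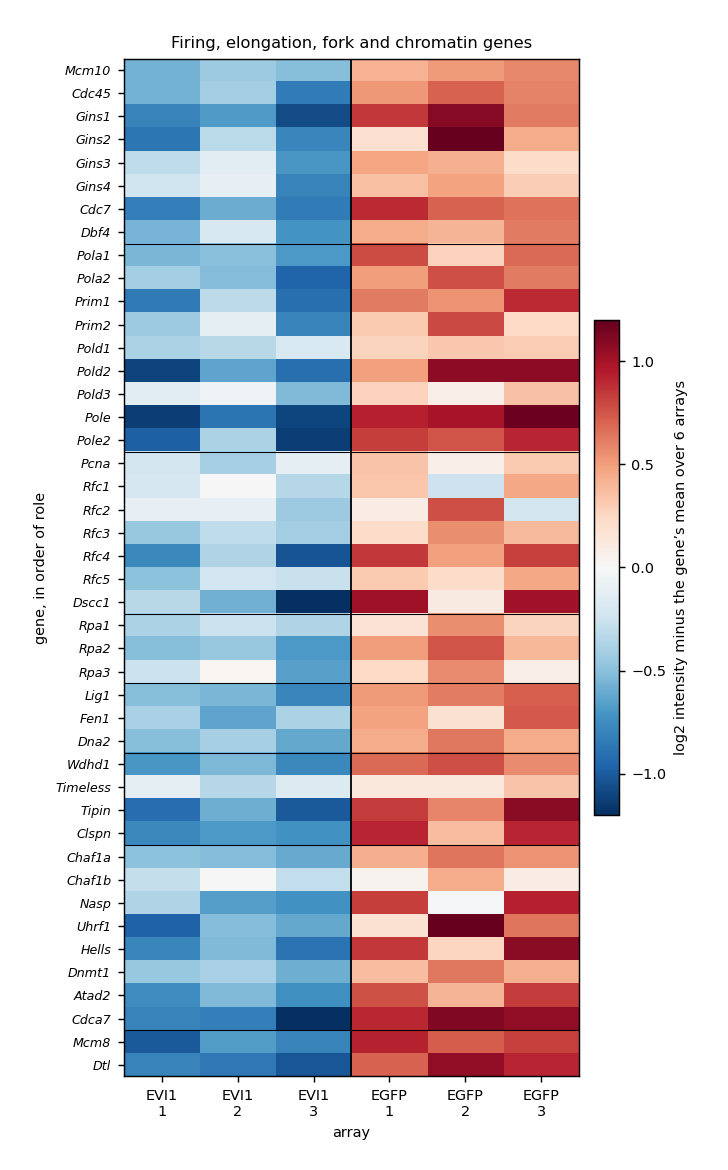
Log2 intensity of the other 44 replication genes on each array, less the mean of the gene over the 6 arrays (colour); rows follow the order of roles in the text, from firing at the top to Mcm8 and Dtl at the bottom, with EVI1 arrays left of the line and EGFP arrays right of it. Rfc1 and Rfc2 are the rows in which the groups overlap, Rfc1 through a low EGFP replicate 2 and Rfc2 through a low EGFP replicate 3.

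Both licensing and elongation genes were lower in the EVI1 arrays. Of 15 licensing genes 12 fell, 10 of them at least 2-fold, with a median log2 fold change of -1.39. Of 22 elongation genes 18 fell, 11 at least 2-fold, with a median of -0.98. Of all genes, 9.18% fell and 3.03% fell at least 2-fold. The means were closer, -1.14 for licensing and -1.02 for elongation. Licensing combined 10 genes between -1.74 and -1.13 with Orc3, Orc4, Orc5, Cdt1 and Gmnn at -0.64 or nearer 0. Elongation genes filled the whole range from -2.07 to -0.36. The mean of the licensing genes less that of the elongation genes was -0.13, -0.092 and -0.059 in EVI1 arrays 1, 2 and 3, against -0.0042, 0.072 and 0.014 in EGFP arrays 1, 2 and 3, a shift of -0.12. The arrays of the groups did not overlap in this measure, with means of -0.094 ± 0.036 in the EVI1 arrays and 0.027 ± 0.040 in the EGFP arrays (SD, n = 3 each). No p is given for this shift, since the genes were grouped with earlier results of these data known. Without Gmnn, an inhibitor, the shift was -0.16, and with the fork protection genes counted as elongation it was -0.089.

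**Figure D4:**
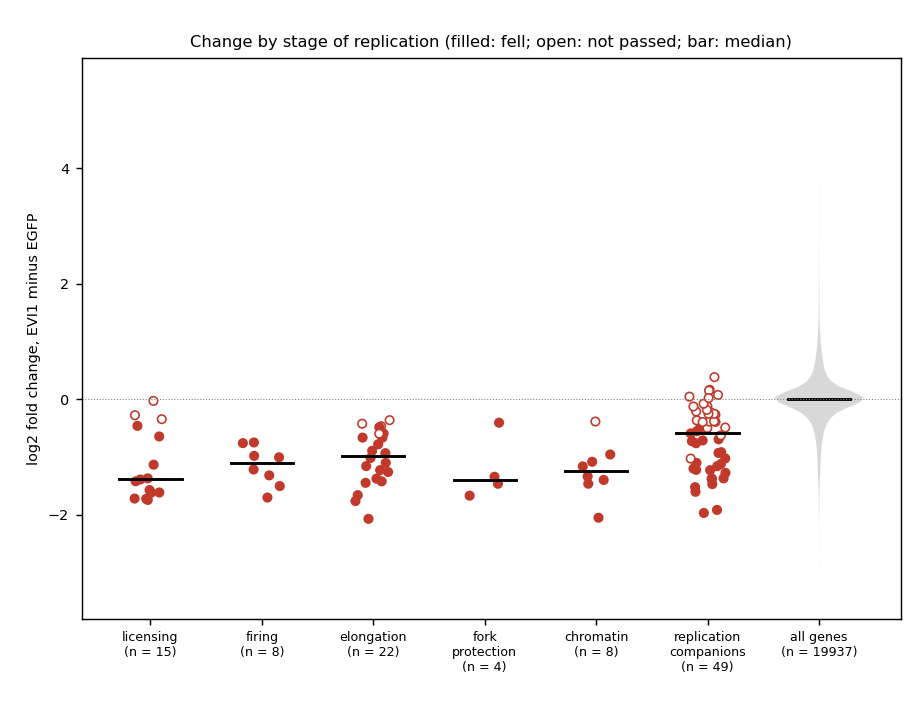
Log2 fold change, EVI1 minus EGFP (y axis), of each gene by stage, of 49 further replication genes, and of all 19937 genes as a grey outline; filled points fell and black bars are medians. Stage medians lie between -0.98 for elongation and -1.40 for fork protection, all below the 0.0060 of all genes.

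Further genes of the replication pathway, from a list that holds no member of the 59, were lower in part. Of 49 measured, 25 fell, against 9.18% of all genes, and 24 did not pass. None rose by limma (0 at an unadjusted p under 0.05), against 9.06% of all genes, and the median was -0.59. With a replicate block 31 fell, against 11.0% of all genes, and 1 rose, against 2172 of 19937 genes. The 1 that rose was Primpol, a primase that restarts stalled forks, at 0.38 (adjusted p = 0.0323). Those that fell include partners of the firing step. Ticrr (treslin), which brings Topbp1 to the helicase, was at -1.97 ± 0.14, and its partners Mtbp and Topbp1 were at -1.16 ± 0.11 and -1.37 ± 0.14. The cyclins Ccne1 and Ccna2, which drive the kinase of S phase, were at -1.23 ± 0.12 and -1.22 ± 0.11. Atad5, which unloads the clamp, was at -1.60 ± 0.15, the cohesion acetyltransferase Esco2 at -1.92 ± 0.18 and Rad18, which modifies Pcna at damage, at -1.37 ± 0.12. Among those that did not pass were Cdk2 (0.16 ± 0.11), the kinase those cyclins activate, and Mcm9 (0.02 ± 0.14), the partner of Mcm8.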

How the data were processed

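RNA of 3 EVI1 and 3 EGFP samples was hybridised to Affymetrix Mouse Gene 1.0 ST arrays, 1 array a sample. The deposited values are log2 intensities made by the authors with RMA, per the submitters' processing notes; its version is not given in the sources used here. There are no reads to count here, and precision is limited by the number of arrays. Of 34760 probe sets, 21640 carried exactly 1 symbol, 1321 several and 11799 none, and each gene took its probe set of highest mean, which gave 19937 genes. Values were used without rescaling or a filter on low values.

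Groups were compared in limma (version 3.58.1, R 4.3.3) by lmFit and eBayes, two-sided and without trend, with Benjamini-Hochberg adjustment over all genes and a threshold of 0.05. Each log2 fold change is EVI1 less EGFP. Counts for the 59 genes, licensing, firing, elongation and the other pathway genes are set beside those of all genes. The same shares, 9.18% that fell and 9.06% that rose, apply to smaller groups and marker lists. So do the 3.03% that fell at least 2-fold and the 16.5% with every EVI1 array below every EGFP array. The genes, lists and alternatives were chosen with earlier results of these data known. Every one of the 59 genes may be named; values on each array are given for the largest and smallest change in each role and for the origin, loading, Mcm2 to Mcm7, Cdc45 and Pcna genes, and of the other pathway genes those 8 with the smallest p, with the array values of Rfc2 and the genes Primpol, Cdk2, Mcm9, Ltf and Adgre1 added after their values were seen. Same-numbered EVI1 and EGFP arrays deviated together from their group means (r = 0.491, 0.269 and 0.197 across genes). Arrays of unlike number gave r from -0.346 to 0.0781. Deviations from a group mean cancel out within the group, so a positive r for like numbers pulls the others down. The values for unlike numbers are thus no separate check of the pairing. The main test had no block, so its p-values and SE do not use this pairing. A replicate block, which treats the numbers as pairing the arrays, was fitted as an alternative. The other alternatives were scaling, filters, probe set choice, trend, array weights and leaving out each array.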

Additional observations from a re-analysis of the deposited data

How the results depend on the processing

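The count of replication genes that fell was 50 to 53 under the 8 alternatives that kept all arrays and 44 to 52 on leaving out an array, against 51. Of the 51, 42 were called under all 14 alternatives fitted. Licensing counts were 10 to 11 and elongation counts 16 to 20 on leaving out an array, and the counts of other pathway genes were 20 to 30. Medians then ranged from -1.26 to -1.10 for all 59 genes, from -1.50 to -1.26 for licensing and from -1.07 to -0.97 for elongation, and the licensing minus elongation shift from -0.14 to -0.098. With a replicate block 53 of the 59 fell; beyond Rpa3 and Chaf1b it changed no call among them. The sign of Orc4, which was not called, turned with array weights (0.039), with quantile normalisation added (0.0011), and without EGFP replicate 1 or EVI1 replicate 3 (0.073 and 0.086; -0.15 to 0.086 over all arrays left out in turn); the cause was not tested. Mecom differed by -0.87 to -0.30 on leaving out an array, and passed without EGFP replicate 1 (adjusted p = 0.0306). Mecom was among the genes removed by the filter at the median. The EVI1 means of Orc1 and Cdc7 were below the olfactory receptor level, which leaves the size of their falls uncertain. Those of Mcm8 (7.15), Fen1 (7.19), Pole (7.20), Dscc1 (7.33), Timeless (7.34) and Cdt1 (7.45) were not far above it. The size of their falls is uncertain too.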

Other observations

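EGFP replicate 2 departed from the other EGFP arrays in both directions among the replication genes, being the highest EGFP array for 28 of the 59 and the lowest for 21. Against the mean of the other EGFP arrays it was higher by 1.02 for Gins2, by 0.87 for Uhrf1, the reader of hemimethylated DNA, by 0.84 for Rfc2 and by 0.53 for Cdc6. It was at -0.90 for the histone chaperone Nasp, -0.90 for Dscc1, -0.71 for Hells, -0.65 for Rfc1 and -0.63 for Orc2. These genes were picked after their values were seen. Without this array Gins2 and Uhrf1 were at -0.98 and -1.11, and Nasp, Hells and Dscc1 at -1.46, -1.70 and -1.72, so their sizes moved while the direction and the call were kept. Its array weight, lower for a noisier array, was 0.452, with 0.874 to 1.55 for the others. Among the EVI1 arrays, replicate 2 was the highest for 44 of the 59 genes and replicate 3 the lowest for 40, with means over the 59 of 8.64, 8.80 and 8.52 in EVI1 arrays 1, 2 and 3.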
